A study of Homo sapiens with 16 samples.

Results

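H3K4me3 peaks were compared between untreated and vehicle-exposed MCF-10A cells, a non-tumorigenic human mammary epithelial line. The comparison used 5 of the 16 libraries of the series: 2 from untreated cells and 3 from cells given the vehicle, phosphate-buffered saline (PBS), for 24 h. The mark was profiled by CUT&RUN, in which an antibody directs a nuclease to cut out the chromatin it binds, with 1 H3K4me3 antibody and 1 kit for every library. The untreated libraries were the positive control of the assay, and cells of both groups grew in MEBM medium. The series was built to compare octanoic acid (OA) with vehicle, so these 2 groups carry no fatty acid and differ, by their labels, in the vehicle and in their place in the experiment. The labels call the replicates biological but do not say whether untreated and vehicle cells were handled together, so vehicle and any such difference in handling cannot be told apart, and a p-value measures only the spread between these libraries.

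H3K4me3 is trimethylation of lysine 4 on histone H3. SET1/MLL methyltransferase complexes deposit it on nucleosomes at transcription start sites, mostly just downstream of the start and at CpG-rich promoters, and KDM5 demethylases remove it. Reader proteins such as TAF3 and the ING family bind it, and it marks promoters of genes that are transcribed or ready for transcription, in mammary epithelium as elsewhere. Centromeric alpha satellite, in contrast, is a tandem repeat without ordinary promoters, and the protein CENP-B binds a short box within it.

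A region was a stretch of hg38 formed by all peaks of the 5 lists that share at least 1 bp. It was called in a library if it held 1 of that library's 11000 strongest peaks, ranked by −log10 p, and its strength there was the percentile of its strongest peak among those 11000, with 100 the strongest. Merging gave 24888 regions, of which 13937 were called in at least 1 library. Of these 13937, 7299 (52.4%) were called in all 5 libraries, 553 (3.97%) in the 3 vehicle libraries and neither untreated library (vehicle-only), and 319 (2.29%) in both untreated libraries and no vehicle library (untreated-only). The other regions were called in some libraries of a group but not in all, among them 806 called in untreated replicate 2 alone. The group-only counts rest on each library of the pair: without untreated replicate 1 there were 1129 untreated-only and 1316 vehicle-only regions, without untreated replicate 2 there were 854 and 1076, and without vehicle replicate 3 there were 491 and 830. A region was counted as satellite-like if at least 40% of the bases of its 1000-bp window recurred at the spacing of the alpha satellite monomer, or if the window held at least 15 copies of GGAAT on either strand, a definition chosen after the data were seen.

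The sequences under these classes were of different kinds, and the following are examples. The untreated-only regions shown were picked among high-ranked ones because they held a CENP-B box, each on a different chromosome. All of them were satellite-like. Over the whole untreated-only class, 58.0% of regions had a box within 200 bp of the summit. The windows of 150 bases come from chr17:25242868-25243017, chr1:124283454-124283603 and chr7:59292462-59292611 of hg38 (plus strand), and capitals mark the CENP-B box.
Untreated-only region, chromosome 17: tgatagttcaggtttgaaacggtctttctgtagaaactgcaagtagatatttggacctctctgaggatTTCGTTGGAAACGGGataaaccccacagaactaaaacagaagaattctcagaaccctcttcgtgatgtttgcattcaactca
Untreated-only region, chromosome 1: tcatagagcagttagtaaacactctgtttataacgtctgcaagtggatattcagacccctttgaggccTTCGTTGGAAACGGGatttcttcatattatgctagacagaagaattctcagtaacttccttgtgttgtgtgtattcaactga
Untreated-only region, chromosome 7: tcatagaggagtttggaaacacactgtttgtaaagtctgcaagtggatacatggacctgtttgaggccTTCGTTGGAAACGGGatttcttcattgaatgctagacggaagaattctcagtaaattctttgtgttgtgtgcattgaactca

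The vehicle-only regions lay at promoters. For the 3 with the highest lowest percentile among the vehicle libraries, the 200 bases upstream of the RefSeq start site (GRCh38.p14, plus strand) are given, at chr3:101779011-101779210, chr2:196639515-196639714 and chr4:39182329-39182528. Capitals mark GGGCGG, the core of an SP/KLF site, or the ETS core CCGGAAG, on either strand; only the former occurs here.
NXPE3: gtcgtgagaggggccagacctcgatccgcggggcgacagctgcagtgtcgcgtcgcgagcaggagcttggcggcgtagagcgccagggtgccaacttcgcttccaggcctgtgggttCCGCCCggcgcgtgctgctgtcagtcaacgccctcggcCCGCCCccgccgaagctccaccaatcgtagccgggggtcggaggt
CCDC150: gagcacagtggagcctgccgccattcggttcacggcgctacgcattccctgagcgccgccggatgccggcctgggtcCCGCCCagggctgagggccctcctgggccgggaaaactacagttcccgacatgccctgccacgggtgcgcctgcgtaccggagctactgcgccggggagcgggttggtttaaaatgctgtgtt
WDR19: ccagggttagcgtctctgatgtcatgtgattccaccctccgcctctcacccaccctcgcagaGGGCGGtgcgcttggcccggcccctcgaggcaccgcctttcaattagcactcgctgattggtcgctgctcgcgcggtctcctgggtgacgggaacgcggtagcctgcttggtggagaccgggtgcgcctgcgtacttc

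Satellite-like sequences and promoters also occurred among the regions called in all 5 libraries, of which 0.548% had a CENP-B box within 200 bp of the summit. The satellite-like example given here is a repeat of another kind, without a marked box. The region with the highest lowest percentile was a GGAAT repeat on chromosome 10, shown at chr10:41859859-41860008 (plus strand) with GGAAT in capitals, and the strongest protein-coding promoter that neither resembled satellite nor overlapped an IgG peak included the 200 bases upstream of NVL, at chr1:224330173-224330372 (minus strand), which hold no GGGCGG. The 200 bases upstream of BROX, another promoter called in all 5 libraries, hold 5 copies of it, counting both strands.
Region of both groups, chromosome 10: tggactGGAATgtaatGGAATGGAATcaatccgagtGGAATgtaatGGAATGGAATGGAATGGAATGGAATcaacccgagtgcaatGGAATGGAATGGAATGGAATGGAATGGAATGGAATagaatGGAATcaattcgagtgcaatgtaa
NVL: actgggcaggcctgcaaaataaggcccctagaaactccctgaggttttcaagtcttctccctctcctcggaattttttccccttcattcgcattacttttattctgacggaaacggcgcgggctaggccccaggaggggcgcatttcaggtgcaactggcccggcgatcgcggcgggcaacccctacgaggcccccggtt

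The deposited lists of the untreated libraries held peaks that were fewer, shorter and weaker than in the vehicle lists. The lists held 12924 and 11242 peaks on chromosomes 1 to 22, X and Y in the untreated libraries, and 19953, 16381 and 16086 in the vehicle libraries. Among the 11000 strongest, the median peak length was 630 and 525 bp in untreated replicates 1 and 2, and 1254, 1296 and 798 bp in vehicle replicates 1, 2 and 3. The groups did not overlap in either measure, and vehicle replicate 3 stood apart from the other vehicle libraries in length. The genome covered by these peaks was 7.0 ± 0.68 Mb (SD, n = 2) in untreated and 12.7 ± 3.1 Mb (SD, n = 3) in vehicle libraries. The differences in peak number, length and cover each had an exact permutation p = 0.2 (two-sided), the smallest that 2 against 3 libraries can give.

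**Figure D1:**
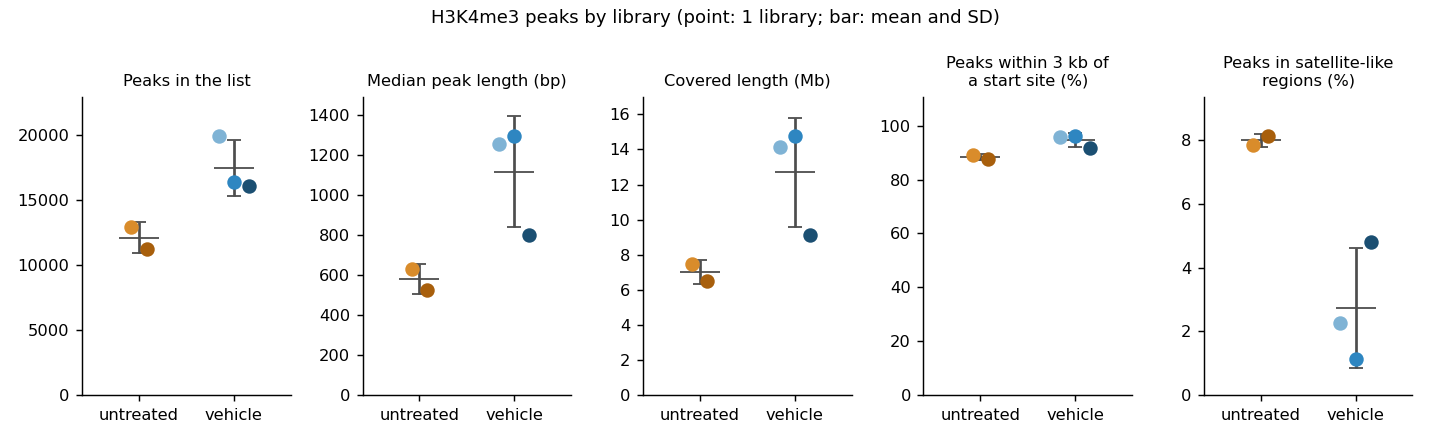
Peaks in the list, median peak length (bp), covered length (Mb), share of peaks within 3 kb of a start site (%) and share of peaks in satellite-like regions (%) by group. Each point is 1 library and each bar the mean with its SD; all panels but the first use the 11000 strongest peaks. The untreated libraries (n = 2) lie below the vehicle libraries (n = 3) in the first 4 panels and above them in the last, at 8.0% against 2.73% on average.

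The depth of the reads is unknown from peak lists, but the height of each peak could be recovered from its fold enrichment and p-value. The median recovered pileup, the number of fragments stacked at the summit, was 22 and 19 in the untreated libraries and 84, 122 and 34 in the vehicle libraries. The median fold enrichment was 5.87 and 5.48 against 9.0, 10.6 and 10.5. The same recovery gave the background expected at each peak. Its lowest level shared by at least 5 peaks was higher in untreated (0.941 and 0.947) than in vehicle libraries (0.822, 0.775 and 0.45). The weakest of the 11000 peaks had a −log10 p of 7.44 and 5.60 in untreated, and of 22, 23 and 10.1 in vehicle libraries, so the rank cut sat at a lower strength in the untreated lists. The part of depth in the differences below was not tested.

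Promoters of basal epithelial genes were called in both groups. Of 24 basal epithelial genes, 20 and 19 had a called region within 1 kb of a start site in untreated replicates 1 and 2, and 21, 20 and 15 in vehicle replicates 1, 2 and 3. Over all 20020 protein-coding genes of the annotation, the share called was 47.3% and 46.2% in untreated and 53.2%, 53.7% and 49.5% in vehicle. ITGB4, an integrin of hemidesmosomes, was called in all 5 libraries at percentiles of 45.8 and 76.4 in untreated and 56.6, 81.8 and 11.1 in vehicle. KRT5, a basal keratin, was called at 40.1 and 48.7 in untreated and at 14.2 and 55.0 in vehicle replicates 1 and 2, and had only a peak below rank 11000 in vehicle replicate 3. KRT14, another basal keratin, had no call in untreated, and its 1 call, in vehicle replicate 1, was near the cut, at percentile 0.005. Of 15 hematopoietic genes, 1 was called, in vehicle replicate 3 only, and none of 10 endothelial genes was called in any library. Of 14 neural and of 14 fibroblast genes, no library had more than 1 called.

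In regions called in all 5 libraries, vehicle peaks were longer at most promoters. The median summed peak length of a region was 810 and 688 bp in untreated and 1406, 1430 and 958 bp in vehicle libraries. Region by region, the length was 1.86, 1.91 and 1.28 times the untreated mean in vehicle replicates 1, 2 and 3 (medians of ratios over 7299 regions). In 4507 of the 7299 regions (61.7%) every vehicle length exceeded both untreated lengths, and in 51 (0.699%) every vehicle length was below both. The share called by the test, limma on log2 lengths centred on each library's median with Benjamini-Hochberg adjustment, was 0% in either direction, with 1480 regions at an unadjusted p under 0.05 (756 longer and 724 shorter in vehicle, relative to the library median). Without the centring, which leaves a median shift of 0.71 (log2) in the data, the same test called 1190 regions longer and 1 shorter in vehicle. Vehicle replicate 3 shared the shift less than the others: 62.3% of its regions were longer than both untreated lengths, against 97.7% and 97.4% in vehicle replicates 1 and 2. The count of 0 on centred lengths did not hold under every setting, as limma called 241 regions without untreated replicate 1, 160 without untreated replicate 2 and 20 without the trend.

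**Figure D2:**
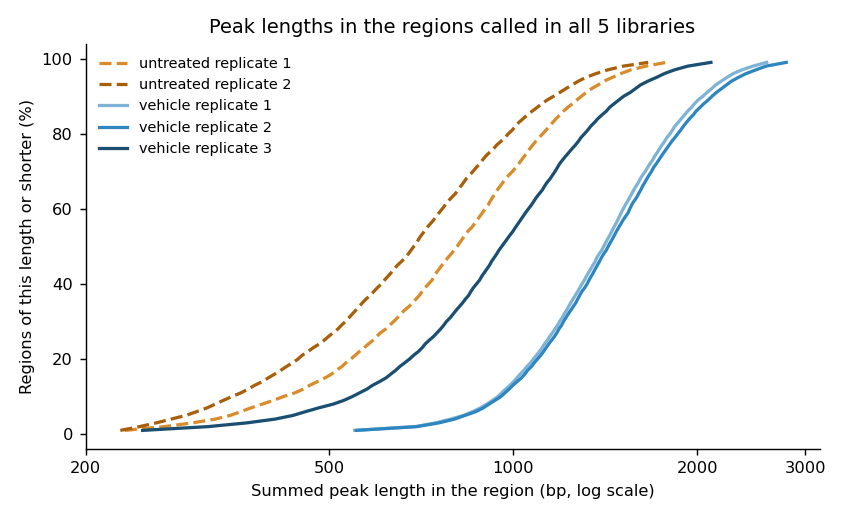
Share of the 7299 regions called in all 5 libraries (%) whose summed peak length is at or below the value on the x axis (bp, log scale). Dashed lines are untreated and solid lines vehicle libraries; the median moves from 688 and 810 bp in untreated to 958, 1406 and 1430 bp in vehicle.

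Peaks reached less far upstream of the start site in both untreated libraries than in any vehicle library. Reach was measured in the 5218 regions that held the canonical start site of 1 protein-coding gene and no other coding gene within 1 kb. In vehicle replicates 1, 2 and 3 the peaks reached a median of 281, 296 and 210 bp upstream of the start site and 1032, 1041 and 721 bp downstream. In untreated replicate 1 they reached 3 bp upstream and 750 bp downstream. In untreated replicate 2 they began downstream of the start site in the median promoter and reached 655 bp into the gene. Downstream reach overlapped between groups, since vehicle replicate 3 lay between the untreated values, while vehicle replicates 1 and 2 lay above both. The span from the first to the last called base held the start site in 49.7% and 42.9% of these promoters in untreated, and in 93.9%, 97.4% and 89.1% in vehicle libraries.

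Summits lay downstream of the start site in both groups. The median summit was 273 and 248 bp downstream of the start site in untreated, and 234, 204 and 152 bp in vehicle libraries. At 250 bp downstream, a peak was present in 87.8% and 84.5% of the promoters in the untreated libraries, and in 99.2%, 99.2% and 93.3% in vehicle replicates 1, 2 and 3. At 250 bp upstream the shares were 19.4% and 17.5% against 54.5%, 57.3% and 43.0%. At 750 bp downstream they were 48.0% and 36.4% against 85.7%, 85.3% and 44.6%, where vehicle replicate 3 lay between the untreated libraries.

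**Figure D3:**
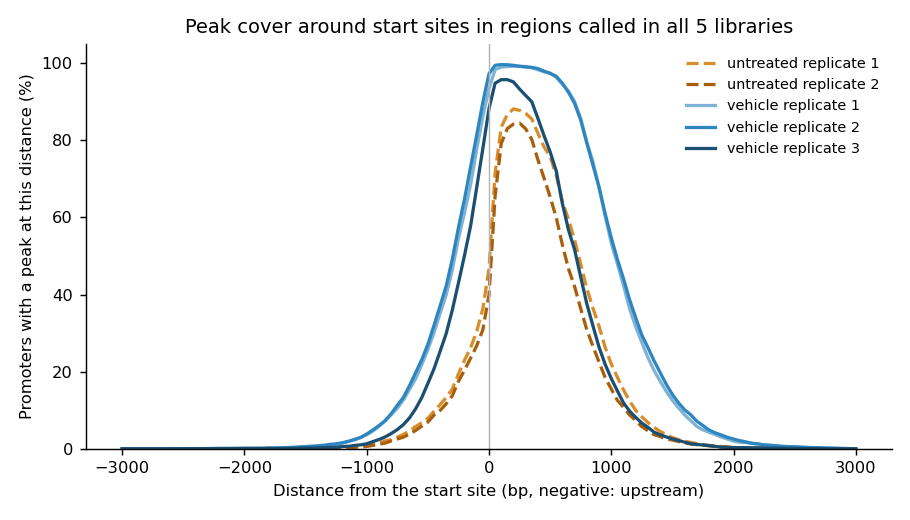
Share of 5218 promoters called in all 5 libraries (%) with a peak at each distance from the start site (bp, negative values upstream), in the direction of transcription. Promoters were kept only if the region merged over the 5 lists held the start site, a choice that favours the libraries with longer peaks. Dashed lines are untreated and solid lines vehicle libraries; at the start site the untreated libraries are at 46.7% and 39.9%, and vehicle replicate 3, the lowest of its group, at 88.2%.

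The order of promoters by strength was compared between libraries. Over the 7299 regions, Spearman's rho of the percentiles was 0.47 between the untreated libraries, 0.44 to 0.67 between vehicle libraries and 0.34 to 0.57 across groups, a description over regions that share sequence and copy number and are not independent. Call sets overlapped most between vehicle libraries: the 2 untreated libraries shared 71.8% of the regions called in either, pairs of vehicle libraries shared 78.7% to 87.9%, and pairs across groups 67.1% to 74.8%. Untreated replicate 1 therefore shared more with vehicle replicate 1 (74.8%) than with untreated replicate 2.

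No region called in all 5 libraries differed in percentile past the threshold. The share called by limma was 0% of 7299 regions in either direction, and the lowest adjusted p was 0.40. With all peaks of each list in place of the 11000 strongest, limma called 67 regions, 37 higher and 30 lower in vehicle, ALG6 and CCNB1 among the higher. At an unadjusted p under 0.05 there were 723 regions (9.91%), 550 higher and 173 lower in vehicle. Every vehicle percentile exceeded both untreated percentiles in 1362 regions (18.7%), and was below both in 718 (9.84%). Of the 173 regions with the lower percentile in vehicle, 28.9% resembled satellite or overlapped an IgG peak, against 1.09% of the 550 higher regions and 3.12% of all tested.

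The promoters with the largest percentile differences, chosen after their values were seen, are given as values only. ALG6, a glucosyltransferase of N-glycan assembly, was at 10.1 and 23.6 in untreated and at 89.3, 83.6 and 89.5 in vehicle, a difference of 70.6 ± 16.5 percentile points (SE, limma, adjusted p = 0.40). CCNB1, the cyclin that drives entry into mitosis, was at 25.8 and 15.9 in untreated and at 83.0, 95.0 and 84.2 in vehicle (66.5 ± 16.6 percentile points, SE). Both untreated values lay far below every vehicle value at these 2 promoters. SGPP2, a sphingosine-1-phosphate phosphatase, was at 83.8 and 78.5 in untreated and at 14.9, 19.6 and 14.1 in vehicle. SCARB1, the receptor for high-density lipoprotein, was at 78.8 and 87.7 in untreated and at 33.8, 15.2 and 0.041 in vehicle. The untreated values were the higher at these promoters, although the peaks of SGPP2 were shorter in untreated (536 and 583 bp) than in vehicle (1516, 1671 and 982 bp).

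The strongest ranks of all 5 libraries belonged to repeats. The 6 regions with the highest lowest percentile were at 98.7 or above in every library, and all 6 overlapped an IgG peak, from untreated cells profiled with a nonspecific antibody. Of these, 5 resembled satellite sequence. Lengths at these regions hardly differed between groups: the GGAAT repeat on chromosome 10 whose sequence is given above was 1083 and 1096 bp long in untreated and 1075, 1058 and 1113 bp in vehicle. The 4 regions with the longest shortest length also resembled satellite, and at 3 of them the percentile was above 98 in untreated and between 14.8 and 98.1 in vehicle. 

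Among promoters that neither resembled satellite nor overlapped an IgG peak, the highest lowest percentiles were those of NVL, a ribosome assembly ATPase, POLR2J3, AIDA and BROX, PSMC6, a proteasome subunit, and FBXO28, beside a region near PPIAL4D. NVL was at 98.1 and 97.98 in untreated and 99.7, 99.97 and 99.3 in vehicle. PSMC6 was at 97.8 and 97.5 in untreated and 99.5, 99.9 and 99.5 in vehicle, with lengths of 550 and 561 bp against 1156, 1239 and 749 bp. These promoters were near the top in both groups and still shorter in untreated. NVL, AIDA, BROX and FBXO28 all lie on chromosome 1, whose shared regions had the highest median percentile of chromosomes 1 to 22 and X in untreated (72.1 and 72.3) and in vehicle replicates 1 and 2 (77.7 and 77.0), though not in vehicle replicate 3 (68.5).

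Untreated-only regions were centromeric repeats for the most part. Of 319, 236 (74.0%) resembled satellite sequence, against 8.88% of all 13937 regions called, and 234 (73.4%) overlapped an IgG peak, against 8.19%. A CENP-B box lay within 200 bp of the summit in 185 (58.0%) of the untreated-only regions and in 5.82% of all called. Chromosome 1 held 165 of them, and 151 of these lay more than 50 kb from any start site, all between chr1:121743379 and chr1:124934195, the centromere. Only 45 (14.1%) lay within 3 kb of a start site, against 84.1% of all regions called. The median GC content around the summit was 39.5%, against 65.3% for all regions called.

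The 12 untreated-only regions with the highest lowest percentile ranked between 95.2 and 98.7 in both untreated libraries. Of these, 10 resembled satellite and 11 overlapped an IgG peak, and the nearest protein-coding start site was more than 1 Mb away for 11 of them. The region on chromosome 17 whose box is shown above (chr17:25242761-25243182) was at 97.7 and 98.7 in untreated, and had only peaks below rank 11000 in vehicle replicates 1 and 2 and none in replicate 3. The chromosome 1 region shown above (chr1:124283259-124283655) was at 98.4 and 97.7 in untreated and had peaks below rank 11000 in all 3 vehicle libraries. In all, 229 of the 319 regions had a weaker peak in at least 1 vehicle library, and 90 had none. The same kind of peak made up 8.0 ± 0.22% (SD, n = 2) of the 11000 strongest peaks in untreated and 2.73 ± 1.89% (SD, n = 3) in vehicle (exact permutation p = 0.2, two-sided). The part of repeat and IgG signal in the untreated-only class was not tested.

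Once satellite-like regions and regions with an IgG peak were set aside, 42 untreated-only regions were left, of which 33 lay within 3 kb of a start site; those named here were chosen after their values were seen. NT5DC2, a nucleotidase-domain gene, was at 18.4 and 19.4 in untreated and below rank 11000 in vehicle replicates 1 and 2, where its recovered pileup was 62 and 59 against 22 and 19 in untreated. GPX4, the glutathione peroxidase that removes lipid peroxides, was at 38.2 and 13.4 in untreated, with pileups of 18 and 14 there and of 35 and 33 in vehicle replicates 1 and 2. ISG20, an interferon-induced exonuclease, was at 41.5 and 16.5, with pileups of 16 and 11 against 21 and 10. DYRK1B, a kinase of the DYRK family, was at 27.1 and 34.1, with pileups of 14 and 13 against 26, 7 and 8. ABCA3, a lipid transporter, was at 26.2 and 33.6, and CDH24, a cadherin, at 14.5 and 17.1. Of the 42 regions, 26 had a higher pileup in a vehicle library than in either untreated library, as did 2 of the other 277. A peak was present in at least 1 vehicle library for 35 of the 42, and 7 had none; pileups are not scaled to depth.

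**Figure D4:**
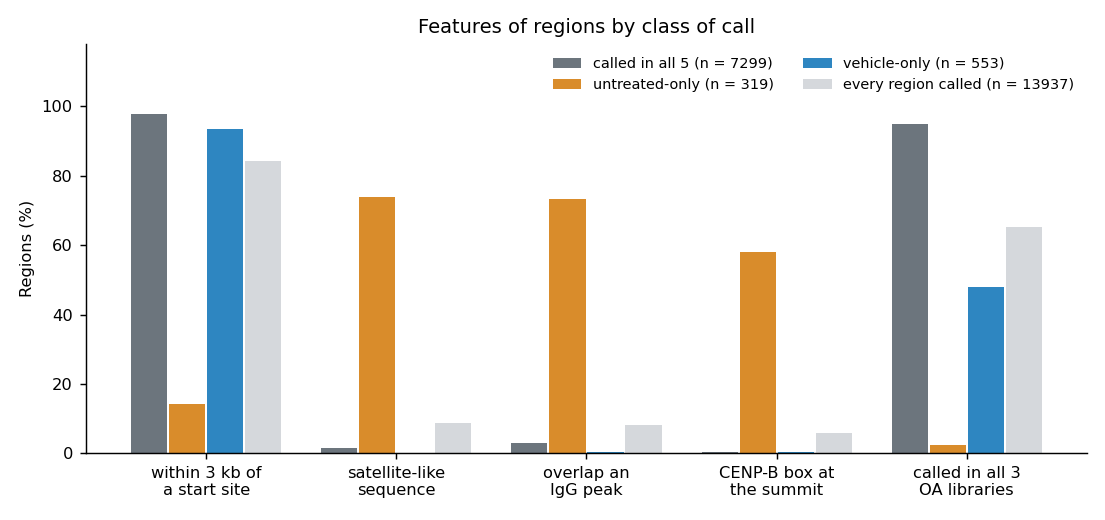
Share of regions (%) with each feature, for regions called in all 5 libraries, untreated-only regions, vehicle-only regions and every region called. Untreated-only regions stand out in satellite-like sequence (74.0%), IgG overlap (73.4%) and the CENP-B box (58.0%). Vehicle-only regions lie at promoters (93.5%), as regions called in all 5 libraries do (97.96%), beside 84.1% of every region called.

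Vehicle-only regions were promoters for the most part and mostly ranked low among the 11000 strongest vehicle peaks. Of 553, 517 (93.5%) lay within 3 kb of a start site, against 84.1% of all regions called. Within 1 kb of a protein-coding start site there were 440 (79.6%), near the 75.5% of all regions called. None resembled satellite, against 8.88% of all called, and 3 (0.542%) overlapped an IgG peak, against 8.19%. Their median percentile was 15.8, 22.7 and 30.1 in vehicle replicates 1, 2 and 3, against 64.4, 65.1 and 62.6 for regions called in all 5, so they came from the lower part of the vehicle lists. The median length was 905, 958 and 531 bp. A peak below rank 11000 was present in untreated replicate 1 for 164 of them and in untreated replicate 2 for 12, and 379 had no untreated peak. The median recovered pileup was 48, 64 and 21 in vehicle, and 11 and 10 in the untreated libraries that had a peak.

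Several vehicle-only promoters nonetheless ranked high in all 3 vehicle libraries. NXPE3, a member of the neurexophilin and PC-esterase family, was at 80.7, 88.2 and 97.3 in vehicle, with pileups of 78 and 162 in replicates 1 and 2, and had no peak in either untreated list. WDR19 and IFT43 both encode subunits of the intraflagellar transport complex that returns cargo from the tip of the cilium. WDR19 was at 79.3, 65.5 and 85.5, and IFT43 at 73.6, 62.9 and 69.7, with no untreated peak at either. DCAF5, a substrate receptor of a ubiquitin ligase, was at 69.9, 74.9 and 63.5, and PCCB, a subunit of propionyl-CoA carboxylase, at 68.0, 61.4 and 92.0, again with no untreated peak.

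Of the 12 highest, 4 had a weaker untreated peak. CCDC150 was at 66.7, 84.4 and 89.0 and PSENEN, a subunit of gamma-secretase whose promoter is shared with U2AF1L4, at 63.7, 61.1 and 62.0; both had a peak below rank 11000 in untreated replicate 1. USP28, a deubiquitinase, was at 87.7, 61.9 and 78.7 and had such a peak in untreated replicate 2. TRIM45 was at 55.2, 54.6 and 75.9, with a weaker peak in untreated replicate 1. No untreated peak was found at the other 3, among them MRPS18B, a mitochondrial ribosomal protein, at 58.9, 78.4 and 67.2, and MRPL15, another, at 55.8, 83.4 and 88.3. The remaining region, at chr22:39875296-39875502, was about 200 bp long in every vehicle library. It lay 7 bp from an annotated start site, but 18258 bp from the nearest protein-coding one, that of ENTHD1.

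**Figure D5:**
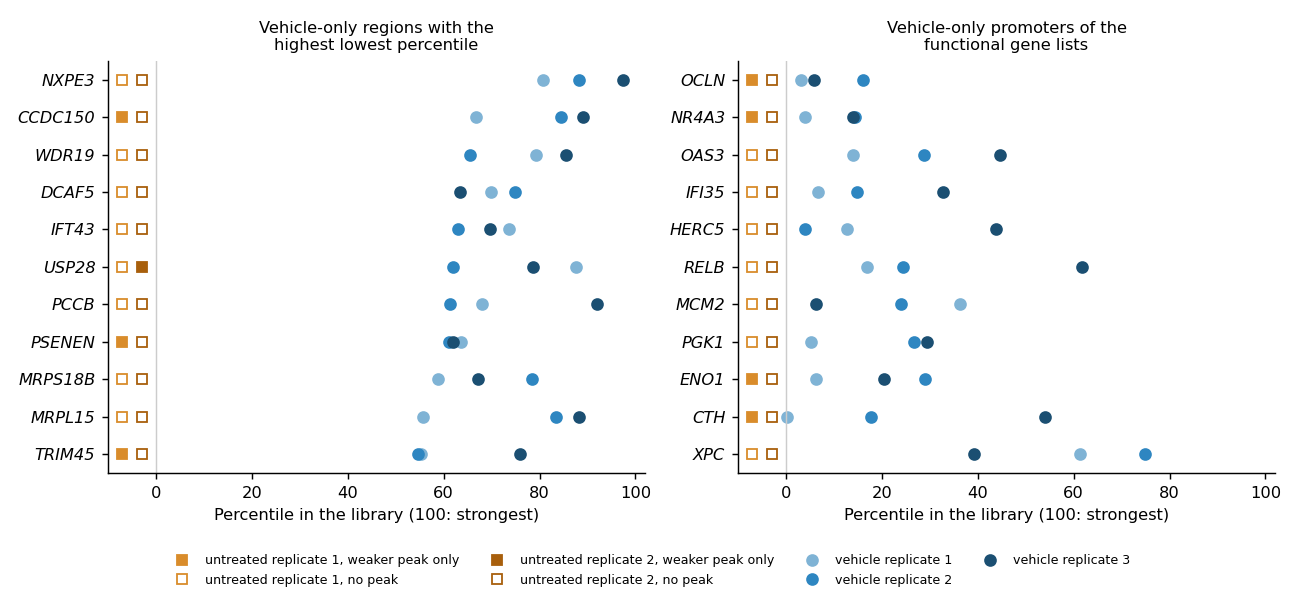
Percentile within the library (100: strongest) of the vehicle-only promoters with the highest lowest percentile (left) and of the vehicle-only promoters in the functional gene lists (right). Circles are vehicle libraries; squares left of 0 show whether an untreated list held a weaker peak (filled) or none (open). The left set spans 54.6 to 97.3 and the right set 0.18 to 74.8.

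Vehicle-only regions were spread over the genome with 1 exception. Chromosome X, singled out after the values were seen, held 60 of the 553 (10.8%), against 1.03% of the regions called in all 5 libraries and 2.95% of all regions called, and it held no untreated-only region. Peaks on X numbered 175 and 156 among the 11000 strongest in untreated, and 266, 339 and 310 in vehicle libraries. The 3 OA libraries of the series had 148, 280 and 191, a range that overlaps that of each group. X regions called in all 5 libraries ranked low in each of them, with median percentiles of 29.5 and 29.3 in untreated and 27.6, 35.7 and 45.7 in vehicle. Chromosome 6 held 49 (8.86%) of the vehicle-only regions, against 5.47% of all called.

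The sequence around the summit of vehicle-only promoters resembled that of promoters called in all 5 libraries. GGGCGG occurred within 200 bp of the summit, on either strand, in 70.7% of vehicle-only regions, 73.1% of those called in all 5, 11.3% of untreated-only regions and 62.3% of all called. The ETS core CCGGAAG occurred in 13.2%, 15.9%, 0.313% and 12.9% of the same classes. The AP-1 site TGACTCA occurred in 3.80% of vehicle-only regions and 3.65% of all called, the E-box CACGTG in 7.23% and 7.36%, and the TEAD site ACATTCC in 2.71% and 4.30%. The median GC content was 64.3% in vehicle-only regions and 67.8% in those called in all 5. Spearman's rho of percentile and GC content was between -0.076 and 0.049 over the 7299 regions in the 5 libraries.

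Other H3K4me3 and H3K27me3 lists of the series placed the classes as follows. All 3 OA libraries called 94.9% of the regions called in all 5 libraries, 47.9% of vehicle-only and 2.51% of untreated-only regions, beside 65.2% of every region called. OA replicates 1, 2 and 3 called 321, 461 and 402 of the 553 vehicle-only regions and 83, 11 and 18 of the 319 untreated-only regions. OA replicate 1 thus came closest to the untreated libraries in both classes. H3K27me3, the mark of Polycomb repression, had a peak in at least 1 vehicle library at 2.17% of vehicle-only regions, 1.96% of those called in all 5 and 15.4% of untreated-only regions, beside 3.51% of every region called. The untreated-only share came mostly from 1 library: H3K27me3 vehicle replicates 1, 2 and 3 had a peak at 45, 10 and 10 of the 319. The same libraries had a peak at 418, 202 and 201 of all 13937 regions called.

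At the level of genes, 11286 protein-coding genes had a called region within 1 kb of a start site in at least 1 library. Of these, 8015 were called in all 5 libraries, 402 (3.56%) in vehicle only and 14 (0.124%) in untreated only. The number per library was 9468 and 9258 in untreated and 10647, 10757 and 9916 in vehicle, so the groups did not overlap. In the gene lists that follow, all group-only members are named, and the other genes are familiar members chosen after their values were seen.

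Promoters of ribosomal protein and cell cycle genes were called in both groups. Of 67 ribosomal protein genes, 64 and 62 were called in untreated and 66, 67 and 67 in vehicle, and none was group-only. Their median percentile difference was 10.1 points over 60 tested regions, beside 3.81 over all 7299, and none passed limma's threshold. Of 33 cell cycle genes, 24 were called in all 5 libraries, with a median difference of 12.4 points, and none passed. MCM2, a subunit of the replicative helicase, was the 1 vehicle-only member, at 36.2, 24.0 and 6.2. CDK1, the kinase partner of CCNB1, was at 39.8 and 58.9 in untreated and 90.1, 88.1 and 51.6 in vehicle, where the groups overlapped.

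The immediate early genes, which respond to growth factors within minutes, had a median difference of the opposite sign, again with none past the threshold. Of 28 immediate early genes, 20 were called in all 5 libraries, and their median difference was -10.8 points. JUN, an AP-1 subunit, was at 66.4 and 79.8 in untreated and 54.1, 14.96 and 11.5 in vehicle, and EGR1 was at 71.9 and 85.5 against 50.2, 35.9 and 58.2. Both untreated values exceeded every vehicle value at JUN and EGR1, while FOS overlapped, at 21.1 and 32.7 against 31.7, 16.2 and 32.6. NR4A3, an orphan nuclear receptor of this list, was vehicle-only at 4.0, 14.3 and 14.1. MYC, in the list of epidermal growth factor (EGF) response genes, was the higher in every vehicle library, at 47.3 and 34.0 in untreated and 63.8, 94.4 and 67.0 in vehicle.

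Of 33 interferon response genes, 9 and 10 were called in untreated and 11, 14 and 17 in vehicle, beside the higher number of all genes called in each vehicle library given above. OAS3, which senses double-stranded RNA, was vehicle-only at 14.0, 28.7 and 44.6, IFI35 at 6.6, 14.8 and 32.8, and HERC5, an ISG15 ligase, at 12.8, 3.9 and 43.8. None of these 3 had any untreated peak, whereas ISG20 of the same list was the untreated-only promoter described above. IFIT1 was called in vehicle replicates 2 and 3 only, at 5.8 and 54.3. The interferon members of the vehicle group ranked higher in vehicle replicate 3 than in replicates 1 and 2. RELB, a subunit of NF-kappa-B, was the 1 vehicle-only member of 22 inflammation genes, at 17.0, 24.5 and 61.8.

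The group-only members of 3 metabolic lists were as follows. Of 24 hypoxia and glycolysis genes, 12 were called in all 5 libraries, and PGK1 (5.2, 26.7 and 29.5) and ENO1 (6.2, 28.9 and 20.4), both enzymes of lower glycolysis, were vehicle-only. ENO1 had a peak below rank 11000 in untreated replicate 1 and PGK1 none. Of 24 sterol synthesis genes, 19 (79.2%) were called in all 5 libraries, with a median difference of 1.48 points and no group-only member. Of 19 serine and one-carbon genes, 14 were called in all 5, and CTH, which makes cysteine from cystathionine, was vehicle-only at 0.18, 17.6 and 54.0. OCLN, a tight junction protein, and XPC, a DNA damage sensor, were the vehicle-only members of the epithelial and p53 lists, and XPC ranked higher (61.3, 74.8 and 39.1) than OCLN (3.2, 16.04 and 5.9).

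Of 17 genes that the study discusses, which were not chosen independently of its libraries, 10 had no call in any of the 5 libraries, among them NGFR, NTRK2, PARM1, MDK, LGR6, AGR2, PDGFRA and NANOG. None of the 17 was group-only. Over all 20020 protein-coding genes, 56.4% had a call in at least 1 library, so many genes outside this list had none either. EIF2AK3, the endoplasmic reticulum stress kinase PERK, was at 83.6 and 67.5 in untreated and 95.8, 85.1 and 82.2 in vehicle. ATF4 was at 37.1 and 64.8 against 28.1, 55.5 and 48.4, and DDIT3, which encodes the stress factor CHOP, at 47.7 and 18.9 against 24.0, 41.4 and 10.6. PHGDH, the first enzyme of serine synthesis, was at 69.9 and 40.7 against 46.1, 75.8 and 64.8. The groups overlapped at each of these 4 genes, and each was called in all 5 libraries.

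The share of peaks at promoters depended on how many peaks were read. Among the 11000 strongest, 88.5 ± 1.0% (SD, n = 2) lay within 3 kb of a start site in untreated and 94.7 ± 2.5% (SD, n = 3) in vehicle (exact permutation p = 0.2, two-sided). With all peaks of each list the order turned, to 87.0% in untreated and 81.3% in vehicle. Without satellite-like and IgG peaks, a choice made after seeing the data, the shares were 95.7% and 97.0%. The class sizes depended on it as well: with all peaks 117 regions were untreated-only and 1473 vehicle-only, and without satellite-like and IgG peaks 46 were untreated-only and 537 vehicle-only.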

How the data were processed

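H3K4me3 was profiled by CUT&RUN in MCF-10A cells. Reads were processed by the authors, whose processing notes name hg38, MACS2 2.2.7.1, SICER, DiffBind 3.9 and ChIPseeker 1.8.6; the aligner, the handling of duplicates and the use of a control are not given in the sources used here. The deposited peak lists, 1 per library, give for each peak a fold enrichment, a −log10 p and a −log10 q at its summit, as the authors' peak caller wrote them, and no listed q-value exceeds 0.01. Depth is unknown; the summit pileup was recovered from fold and p, to a tolerance of 0.02%, and is not scaled to depth.

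Peaks on chromosomes 1 to 22, X and Y that share 1 bp were merged over the 5 libraries, and calls, lengths and percentiles were taken from the 11000 strongest peaks of each library by −log10 p. Percentiles and log2 lengths centred on the library median were tested with limma 3.58.1 (trended empirical Bayes, Benjamini-Hochberg threshold 0.05; R 4.3.3), and library values with exact permutation tests (scipy 1.17.1). The scripts were tested on simulated data. Start sites were those of GENCODE 44, and promoter sequences those of RefSeq. The named regions were the 12 of each group-only class with the highest lowest percentile, the 6 strongest and 4 longest called in all 5 libraries, group-only list members, and the genes of the study; others are said to be chosen after their values were seen. Members and lists were chosen with earlier results of these data known. The alternatives were all peaks, the 8000 strongest, a q-value of at most 1e-05, ranking by fold, coverage of 50% of a region, other contigs, removal of IgG or satellite-like peaks, other limma settings, a replicate block and leaving out each library.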

Additional observations from a re-analysis of the deposited data

How the results depend on the processing

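Peak number, covered length and median peak length were higher in vehicle under every alternative run for them. Leaving out 1 library at a time, the differences ranged from 4150.5 to 6231 peaks, from 4.65 to 7.48 Mb, from 448.5 to 697.5 bp and, for the promoter share, from 5.37 to 7.63 percentage points. The difference in promoter share turned to -5.70 points with all peaks and to -2.07 points at a q-value of at most 1e-05. Regions called in all 5 libraries numbered 4543 with the 8000 strongest peaks, 2225 when peaks had to cover 50% of a region, and 7324 to 8062 with 1 library left out. Untreated-only regions numbered 117 with all peaks, 99 at the stricter q-value, 85 without IgG regions, 46 without satellite-like and IgG peaks (added after seeing the data) and 342 to 1129 with 1 library left out (1129 without untreated replicate 1, 854 without untreated replicate 2, 491 without vehicle replicate 3). Vehicle-only regions numbered 1473 with all peaks, 1812 at the stricter q-value, 2441 with 50% cover, 1141 when 2 libraries of a group sufficed and 644 to 1316 with 1 library left out (1316, 1076 and 830 without the same libraries). The group-only regions named above were among 25 untreated-only and 23 vehicle-only regions followed 1 by 1. Of these, 5 and 15 stayed in their class with all peaks, and 13 and 13 with the 8000 strongest. With ranking by fold 12 and 16 stayed, and at the stricter q-value 4 and 23. Limma calls on percentiles were 67 with all peaks and 0 to 0 with 1 library left out. Limma calls on lengths were 4 with all peaks, 2 with the 8000 strongest, 13 at the stricter q-value, 20 without the trend, 1191 without centring, and 0 to 241 with 1 library left out (241 without untreated replicate 1, 160 without untreated replicate 2), where the lone sample is assumed to vary like the other group. The causes were not tested.

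Replicate numbers 1 and 2 occur in both groups. Deviations of same-numbered libraries from their group means had correlations of 0.03 and -0.02 for percentiles. With 2 untreated libraries the deviations of 1 mirror those of the other, so these correlations cannot decide whether the numbers pair the libraries. With a replicate block, which leaves out vehicle replicate 3, limma called 516 regions on length and 0 on percentile. Peak lists without read depth and 2 against 3 libraries limit what a single region can show.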
